A study of Mus musculus with 12 samples.

Results

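Bone marrow RNA after 18 days of an agonist antibody to CD137 was compared with marrow taken before treatment, with 3 samples on each side, 6 of the 12 samples of the series. All mice were wild-type C57BL/6 animals given Vk12653 cells intravenously, a transplantable mouse myeloma line of the Vk*MYC kind. The day 18 samples came from mice that received the antibody clone 3H3 in repeated intraperitoneal doses of 10 µg, and they were taken 28 days after the myeloma injection. The untreated samples carried the same myeloma and no antibody, and were collected at day 0 of treatment, 10 days after the cells were given. Another 6 samples, from days 4 and 11 of treatment (days 14 and 21 after injection), entered the same model and are used here mainly to place day 18 in time. The labels give neither the age nor the number of mice behind each sample. P-values therefore measure the spread between these samples only, which may be technical. Days of antibody and days since the myeloma injection both separate the groups, and untreated marrow of the later day is not analysed here, so the antibody and 18 more days of disease cannot be told apart in any difference below.

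CD137, the product of Tnfrsf9, is a costimulatory receptor of the tumour necrosis factor receptor family that activated T cells and NK cells put on their surface. When it is bound it recruits TRAF adaptors, feeds NF-kB signalling and favours survival and effector function of CD8 T cells. Activated CD8 T cells release granzymes, perforin and interferon gamma, and interferon gamma acts through transcription factors such as IRF1 to raise antigen presentation and a set of immunity GTPases in neighbouring cells.

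The table gives normalised read counts, and every value below without another unit is such a normalised count. Of 23134 genes, 14883 reached 10 normalised counts or more in 3 or more of the 12 samples and were tested. Estimated assigned reads were 23.56, 20.46 and 18.55 M in the day 18 samples and 25.25, 22.99 and 21.64 M in the untreated samples, so depth overlapped between the groups. Mature neutrophil transcripts, which are abundant in whole marrow, did not separate the groups: 0 of 17 tested members were called with limma, 3 had an unadjusted p under 0.05, and their summed level ranged from 1602760 to 1960470 at day 18 and from 1637280 to 1909460 in untreated marrow. Single samples stood somewhat apart. Untreated replicate 1 had the lowest level of T cell, erythroid and stromal transcripts among the untreated samples and the highest level of Ighg2b, and day 18 replicate 2 had the lowest level of natural killer transcripts of all 6. Fewer cells of a type and less RNA per cell cannot be told apart in bulk marrow.

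At day 18, 787 genes were higher and 582 lower than in untreated marrow (limma, Benjamini-Hochberg adjusted p under 0.05), which is 5.29% and 3.91% of the genes tested. Counts of list members called below are to be read beside these shares. Differences are log2 changes of the normalised count plus 1, day 18 minus untreated. The median was 0.74 among genes called higher and -0.658 among genes called lower, and 3e-04 over all genes tested. In all 1369 genes were called, 9.2% of those tested, and in 1349 of them the 3 day 18 samples lay entirely on one side of the 3 untreated samples. Among all genes tested, 26.3% had no such overlap, 13.8% with day 18 higher and 12.6% with day 18 lower. A change of at least 1 on the log2 scale was reached by 332 genes called higher, 2.23% of those tested, and by 167 called lower, 1.12%. The number called was 804 without day 18 replicate 2, 863 without untreated replicate 2 and 810 without untreated replicate 3, while sample weights raised it to 2056. At the earlier times, in the same fit, 2.4% of genes were higher and 2.24% lower than untreated marrow at day 4, and 3.2% and 2.12% at day 11.

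**Figure D1:**
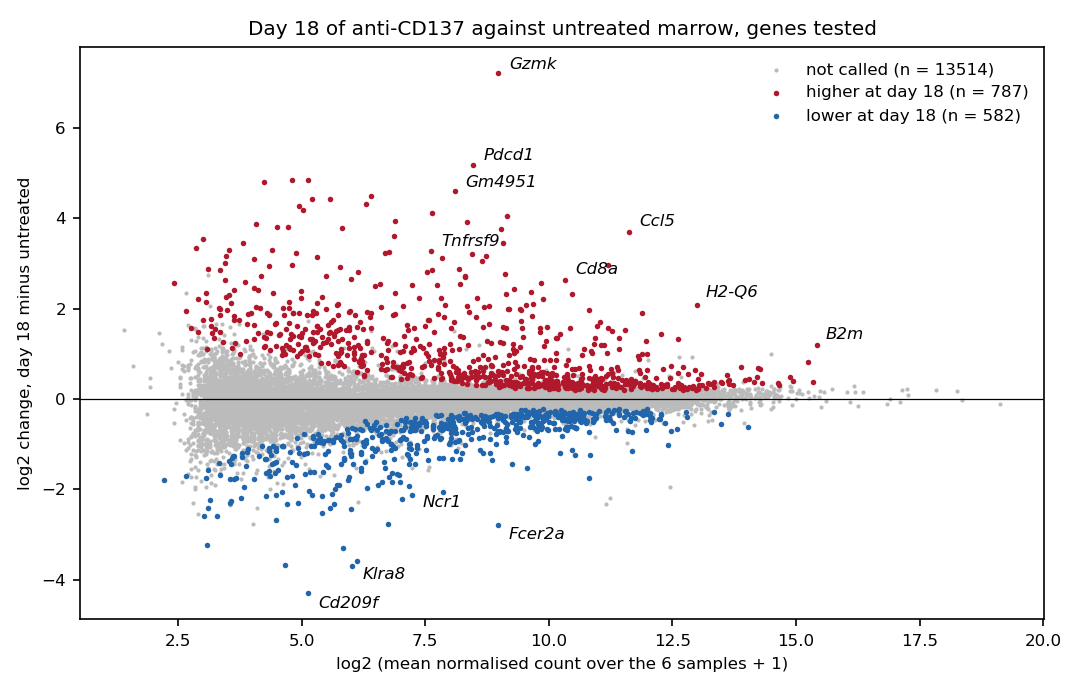
Log2 change at day 18 against untreated marrow (vertical axis, positive is higher at day 18) by the log2 mean level over the 6 samples (horizontal axis), 1 point per gene tested. The 787 genes called higher are red, the 582 called lower blue, and Gzmk stands above all others at 7.22.

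Tnfrsf9 itself was higher at day 18. The samples had 360, 363 and 340 normalised counts at day 18 and 31, 32 and 45 in untreated marrow. The groups lay far apart and the day 18 samples were close to each other. The mean was 354 ± 12.5 at day 18 and 36 ± 7.81 in untreated marrow (SD, n = 3 each), for a log2 change of 3.28 ± 0.28 (SE, adjusted p = 3.86e-06, limma). The gene, ENSMUSG00000028965.13, lies on chromosome 4 from 150914562 to 150946102 on the plus strand of GRCm38. Of 12 tested members of the CD137 and NF-kB list 4 were higher and 0 lower, with a median log2 change of 0.16. Beside Tnfrsf9, Tnfaip3, a feedback inhibitor of NF-kB, averaged 1365 ± 182 at day 18 and 830.3 ± 91.7 in untreated marrow (log2 change 0.71 ± 0.12, adjusted p = 0.0016). Traf1, an adaptor that binds CD137, averaged 449 ± 79.7 at day 18 and 252 ± 42.9 in untreated marrow (log2 change 0.83 ± 0.17, adjusted p = 0.00763). The fourth, Bcl2a1b, a survival gene with close copies, had 8, 7 and 11 at day 18 and 4, 2 and 0 in untreated marrow, and its call ended when any day 18 replicate or untreated replicate 2 or 3 was left out. Bcl2a1b passed the filter only through treated samples, so its place in the count is no support for it. The subunit genes of NF-kB were among the 8 members that did not pass.

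The 10 largest rises, leaving out predicted genes, began with Gzmk and Pdcd1. Gzmk, a granule protease of memory and effector CD8 T cells (ENSMUSG00000042385.14, chromosome 13 from 113171608 to 113225908 on the minus strand), had 872, 938 and 1202 normalised counts in the day 18 samples and 5, 4 and 9 in untreated marrow, a log2 change of 7.22 ± 0.26 (SE, adjusted p = 3.23e-09). Pdcd1, which encodes the inhibitory receptor PD-1 (ENSMUSG00000026285.7, chromosome 1 from 94038305 to 94052553 on the minus strand), had 568, 744 and 757 at day 18 and 17, 22 and 15 in untreated marrow (log2 change 5.19 ± 0.26, adjusted p = 4.79e-08). No day 18 sample came near an untreated one for either gene. Chst2, a sulfotransferase gene, followed the same order with 330, 360 and 441 at day 18 and 19, 27 and 17 in untreated marrow (log2 change 4.12). Of the other 7 genes, 5 had at most 3 normalised counts in each untreated sample, so the size of their log2 change depends on the pseudocount. These 5, Tmprss13 and Gzmk had fewer than 10 in every untreated sample. They passed the filter only through treated samples, and Apol11a, with 5, 4 and 10 in untreated marrow, only with the help of treated samples. The place of all these genes among the rises is no support for a rise. Ccl8, a monocyte chemokine, had 51, 79 and 68 at day 18 and 3, 2 and 0 in untreated marrow, and its log2 change was 4.85 with a pseudocount of 1, 6.23 with 0.1 and 3.42 with 5. Coch, which encodes the secreted protein cochlin, had 59, 61 and 38 at day 18 and 2, 1 and 0 in untreated marrow, with log2 changes of 4.85, 6.40 and 3.25 under the same pseudocounts. Gbp2b, a guanylate-binding protein gene, had 64, 116 and 31 at day 18 and 3, 2 and 1 in untreated marrow. Tnfsf4, the gene of OX40 ligand, had 67, 55 and 50 at day 18 and 2, 2 and 2 in untreated marrow. Apol11a, an apolipoprotein L gene, had 222, 156 and 107 at day 18 and 5, 4 and 10 in untreated marrow. The protease gene Tmprss13 had 74, 81 and 116 at day 18 and 2, 3 and 5 in untreated marrow. Faxc had 66, 78 and 40 at day 18 and 2, 2 and 3 in untreated marrow. A gene could enter these 10 only if its day 18 and untreated samples did not overlap, so the separation in all 10 is no support for them.

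T cell transcripts were higher at day 18 as a group. Of 18 tested members of the T cell core list, which holds receptor chains, coreceptors and proximal signalling genes, 17 were higher and 0 lower, also without untreated replicate 1, with a median log2 change of 1.80. Cd8a, a chain of the CD8 coreceptor, had 1953, 2114 and 2538 normalised counts at day 18 and 230, 472 and 400 in untreated marrow, a log2 change of 2.63 ± 0.27 (SE, adjusted p = 2.53e-05). The receptor constant chain gene Trac averaged 935 ± 265 at day 18 and 186 ± 47.4 in untreated marrow (log2 change 2.32 ± 0.23). Cd3g, a signalling chain of the receptor complex, averaged 1337 ± 205 at day 18 and 263 ± 66.6 in untreated marrow (log2 change 2.36 ± 0.21). Zap70, the kinase that docks on that complex, averaged 714 ± 103 at day 18 and 172 ± 25.5 in untreated marrow and had the smallest adjusted p of the list at 5.43e-06. Cd4, the coreceptor of helper T cells, did not pass: its samples had 953, 1110 and 823 at day 18 and 577, 772 and 784 in untreated marrow, which do not overlap, and its log2 change was 0.44 ± 0.15 (adjusted p = 0.0933). Without day 18 replicate 3 or day 11 replicate 2, or with sample weights, Cd4 passed. Variable segments of T cell receptors were higher in 15 of 26 tested and lower in 0, among them 13 of 17 Trbv segments on chromosome 6. With a filter on a mean of at least 40, 7 Trbv segments were higher. Reads of such near-identical segments may be split by counting, so single segments are not read further.

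Cytotoxic effector genes rose alongside. Of 18 tested members 14 were higher and 1 lower, with a median log2 change of 1.95. Gzmk, given above, and Ifng are among the 14. Gzmk passed the filter only through treated samples, and Ifng, with 5, 6 and 11 in untreated marrow, only with their help. The place of both genes in the count is no support for it. Ccl5, a chemokine stored and released by effector T cells, had 4436, 5820 and 7233 normalised counts at day 18 and 320, 486 and 545 in untreated marrow (log2 change 3.70 ± 0.24, adjusted p = 4.81e-07). Its relatives Ccl4 and Ccl3 averaged 622 ± 49.4 and 919.7 ± 66.2 at day 18, against 69 ± 27.1 and 234 ± 41.4 in untreated marrow. Gzmb, the granzyme that starts apoptosis in target cells, had 942, 1025 and 975 at day 18 and 93, 75 and 102 in untreated marrow (log2 change 3.44 ± 0.34, adjusted p = 2.06e-05). Prf1, the pore-forming perforin gene, averaged 525 ± 28.3 at day 18 and 139 ± 26 in untreated marrow (log2 change 1.92 ± 0.30). Ifng, which encodes interferon gamma (ENSMUSG00000055170.4, chromosome 10 from 118441046 to 118445892 on the plus strand), had 55, 65 and 91 at day 18 and 5, 6 and 11 in untreated marrow, a log2 change of 3.13 ± 0.28 (adjusted p = 6.55e-06). Eomes, a transcription factor of effector and memory CD8 T cells, averaged 969 ± 59 at day 18 and 143 ± 32 in untreated marrow. Klrg1, a receptor of terminal effectors, averaged 214 ± 47 at day 18 and 16.7 ± 3.51 in untreated marrow, and Fasl, the death ligand gene, 254 ± 36.2 at day 18 and 43 ± 3 in untreated marrow. Each of these genes was higher in 3 of 3 day 18 samples than in any untreated sample. The member that fell was Gzma, a granzyme shared with natural killer cells, with 222, 81 and 119 at day 18 and 298, 302 and 366 in untreated marrow (log2 change -1.31 ± 0.29, adjusted p = 0.0115), a call that ended without untreated replicate 3. Natural killer transcripts, which share several of these effector genes, were lower at day 18, as described below.

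Inhibitory receptors and transcription factors of repeatedly stimulated T cells were among the genes called. In the checkpoint and activation list 11 of 17 tested members were higher and 0 lower, with a median log2 change of 1.22. Tox, a nuclear factor linked to chronic stimulation of CD8 T cells, had 558, 647 and 626 normalised counts at day 18 and 30, 48 and 43 in untreated marrow (log2 change 3.91 ± 0.27, adjusted p = 5.85e-07). Its relative Tox2 averaged 197 ± 45.4 at day 18 and 20.3 ± 7.77 in untreated marrow (log2 change 3.25 ± 0.25). Lag3, an inhibitory receptor that binds MHC class II, had 1187, 1225 and 1357 at day 18 and 307, 355 and 395 in untreated marrow, a log2 change of 1.84 ± 0.11 (adjusted p = 2.04e-07). Havcr2, the gene of TIM-3, averaged 509 ± 99.3 at day 18 and 68.7 ± 11.9 in untreated marrow. Ctla4 averaged 198 ± 47.5 at day 18 and 38 ± 7.55 in untreated marrow, and Rgs16, a brake on G protein signalling, 220.3 ± 26.8 at day 18 and 14.3 ± 6.51 in untreated marrow. Rgs16 passed the filter only with the help of treated samples, so its place in the count is no support for it. The costimulatory receptor gene Icos had 166, 111 and 219 at day 18 and 46, 96 and 70 in untreated marrow (log2 change 1.22 ± 0.29, adjusted p = 0.0173), a call lost without untreated replicate 1 or 3 or day 18 replicate 3. All 3 day 18 samples lay above all 3 untreated samples for each of these genes.

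Receptors of memory and trafficking split in both directions. Of 16 tested members of the memory and homing list 5 were higher and 3 lower. Cxcr6, a receptor of tissue-homing T cells, averaged 612 ± 14.2 normalised counts at day 18 and 131 ± 26.5 in untreated marrow (log2 change 2.24 ± 0.20). Il2rb, the shared chain of the IL-2 and IL-15 receptors, averaged 3656 ± 371 at day 18 and 1302 ± 262 in untreated marrow (adjusted p = 0.000194). Cxcr3, the receptor for Cxcl9, averaged 396 ± 68.7 at day 18 and 184 ± 25.7 in untreated marrow. On the other side, S1pr1, the receptor for exit from tissue, had 366, 316 and 470 at day 18 and 582, 878 and 769 in untreated marrow (log2 change -0.95 ± 0.17, adjusted p = 0.00354). The lymph node homing receptor gene Ccr7 had 215, 155 and 236 at day 18 and 290, 443 and 399 in untreated marrow (log2 change -0.90 ± 0.18). Cx3cr1, which monocytes also express, averaged 1173 ± 153 at day 18 and 1835 ± 46 in untreated marrow (log2 change -0.65 ± 0.15). S1pr1 and Ccr7 are also expressed by mature B cells, whose markers were lower at day 18; the part of B cells in these falls was not tested.

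In the regulatory T cell list 3 of 6 tested members, Ctla4, Il10 and Ikzf2, were higher and 0 lower, and 1 was higher without untreated replicate 2. The others were Tnfrsf18, Il2ra and Lrrc32, with log2 changes of 0.44, -0.47 and -0.10, and Foxp3 was not among the tested members. Ctla4 stands in the checkpoint list too. Il10, the gene of an anti-inflammatory cytokine, had 44, 38 and 42 normalised counts at day 18 and 14, 6 and 10 in untreated marrow (log2 change 2.01 ± 0.45, adjusted p = 0.0129). Il10 passed the filter only with the help of treated samples, so its place in the count is no support for it. It averaged 11.7 ± 7.09 at day 4 and 10.3 ± 3.51 at day 11, against 10 ± 4 in untreated marrow, and its difference between day 18 and day 11 was 1.95 ± 0.45 on the log2 scale (adjusted p = 0.151). The call against untreated marrow ended without untreated replicate 2 (adjusted p = 0.0604). Ikzf2, the gene of Helios, averaged 672 ± 100.4 at day 18 and 403 ± 101 in untreated marrow (log2 change 0.76 ± 0.20, adjusted p = 0.0271). It lost its call without untreated replicate 1 or 2 or day 18 replicate 1 or 2. Il2ra, the high-affinity chain of the IL-2 receptor, had 383, 247 and 220 at day 18 and 415, 402 and 334 in untreated marrow, overlapping between the groups (adjusted p = 0.18), and was called lower without day 18 replicate 1.

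**Figure D2:**
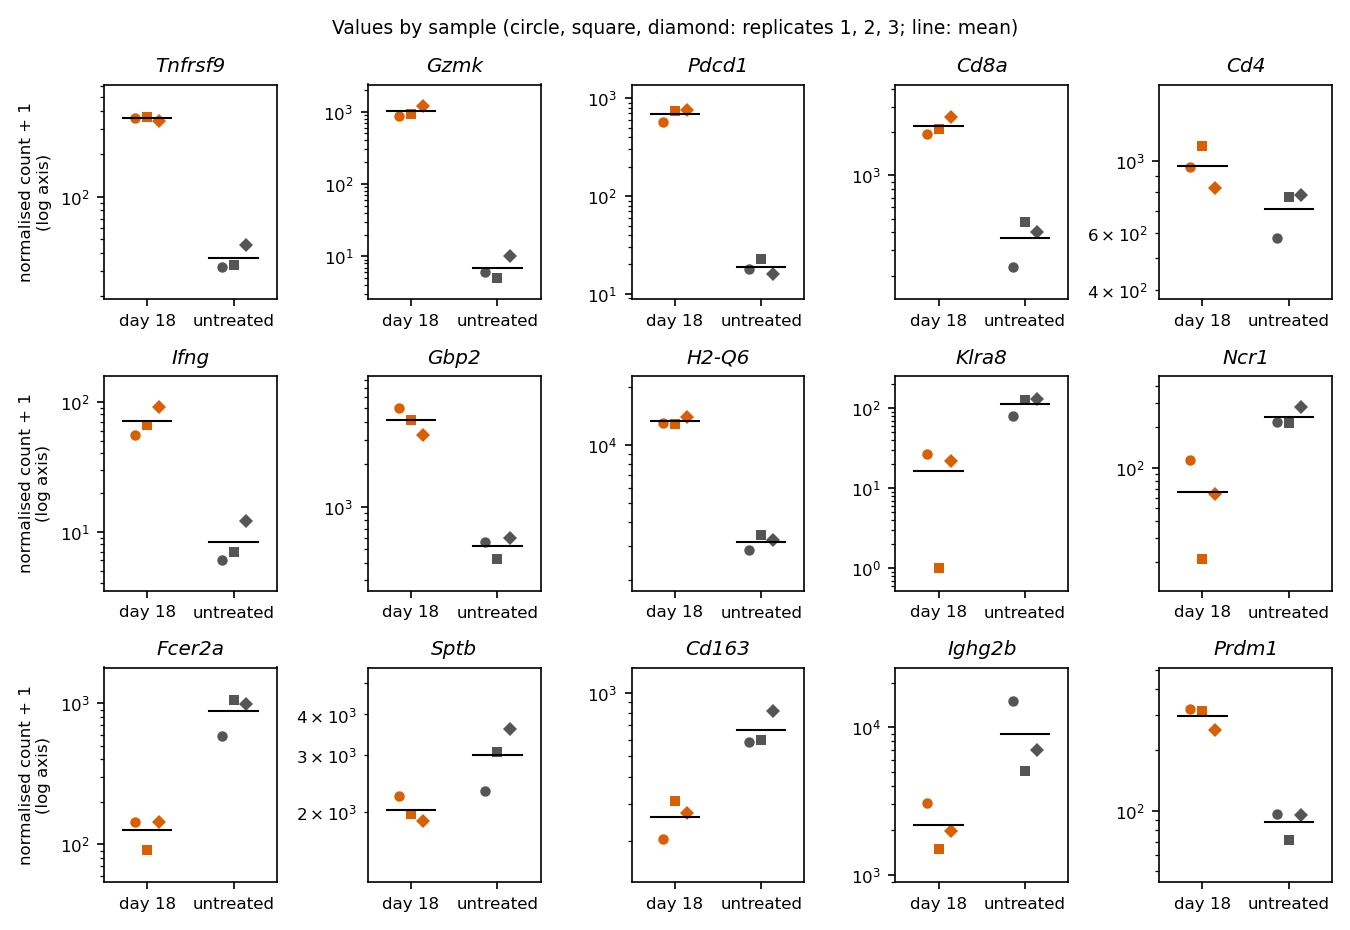
Normalised counts plus 1 of 15 genes in each sample on log axes, day 18 left (orange) and untreated right (grey), with symbols for the replicates and a line for the mean. Klra8 and Ncr1 show day 18 replicate 2 (square) well below the other day 18 samples, and Cd4 and Ighg2b are the panels whose gene did not pass the test.

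Natural killer transcripts went the other way. Of 17 tested members of the natural killer list 12 were lower and 0 higher, with a median log2 change of -1.405, and the summed level of the list ranged from 5176 to 5890 at day 18 and from 7750 to 8254 in untreated marrow. Il18rap, a chain of the IL-18 receptor that other lymphocytes express too, made up 64.8% of that sum. It had 3782, 3727 and 3616 at day 18 and 5712, 4699 and 4551 in untreated marrow (log2 change -0.42 ± 0.11, adjusted p = 0.0252), and its call ended without untreated replicate 1 or day 18 replicate 2 or 3, with estimated depth as a covariate or with no intensity trend. The other 16 members summed to 1449 to 2108 at day 18 and 2542 to 3199 in untreated marrow. Ncr1, the activating receptor NKp46 that marks natural killer cells, had 113, 20 and 63 normalised counts at day 18 and 214, 212 and 276 in untreated marrow (log2 change -2.12 ± 0.45, adjusted p = 0.00917). Klrb1c, the gene of NK1.1, had 78, 26 and 72 at day 18 and 163, 224 and 190 in untreated marrow (log2 change -1.83 ± 0.34, adjusted p = 0.0041), and the activating receptor gene Klrc2 averaged 56.7 ± 19.2 at day 18 and 146 ± 15.5 in untreated marrow (log2 change -1.40 ± 0.23). In each of the 3 genes day 18 replicate 2 was the lowest sample, and no day 18 sample reached the untreated ones. Without that sample 9 of the 17 members were lower, and the log2 change of Ncr1 was -1.45 (adjusted p = 0.0150). The 5 members that did not pass, of which CD8 T cells also express several, had log2 changes between -0.53 and 0.13. Klrd1, which encodes CD94 and is among them, had 271, 257 and 341 at day 18 and 354, 460 and 438 in untreated marrow (adjusted p = 0.103).

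The Ly49 receptor genes of the Klra family, which natural killer cells use to sense MHC class I, accounted for many of these. All 13 tested family members lie on chromosome 6 between 129831154 and 131247362, and 10 were lower and 0 higher, with a median log2 change of -1.85. Klra8, the gene of the activating receptor Ly49H (ENSMUSG00000089727.2, chromosome 6 from 130115226 to 130129898 on the minus strand), had 26, 0 and 21 normalised counts at day 18 and 78, 126 and 131 in untreated marrow, a log2 change of -3.71 ± 0.95 (SE, adjusted p = 0.026). Without day 18 replicate 2 its log2 change was -2.17 (adjusted p = 0.0317), so this sample carried much of the size. The call ended without untreated replicate 2 or 3, at adjusted p = 0.079 and 0.0897. Klra4 had 25, 1 and 18 at day 18 and 90, 102 and 101 in untreated marrow (log2 change -3.31 ± 0.72, adjusted p = 0.0109), and -2.15 without day 18 replicate 2 (adjusted p = 0.00853). Klra7 had the smallest adjusted p of the family, 0.000154, with 57, 33 and 59 at day 18 and 158, 171 and 200 in untreated marrow, and Klra1 averaged 29.3 ± 10.4 at day 18 and 80 ± 18.2 in untreated marrow. Klra members are close copies of each other, and reads shared between them are uncertain at the level of a single gene. Without day 18 replicate 2, 6 of the 13 were lower, and without untreated replicate 2 or 3, 6 and 5 were.

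Interferon gamma response genes were higher at day 18 in 20 of 27 tested members and lower in 0, with a median log2 change of 1.35. Irf1, a transcription factor induced by interferon gamma, had 5737, 5416 and 5976 normalised counts at day 18 and 2502, 2157 and 2335 in untreated marrow (log2 change 1.29 ± 0.08, adjusted p = 3.23e-07). Cxcl9, a chemokine that draws activated T cells, had 857, 651 and 641 at day 18 and 73, 71 and 114 in untreated marrow (log2 change 3.07 ± 0.25, adjusted p = 3.38e-06). Cd274, the gene of PD-L1, averaged 782 ± 171 at day 18 and 392 ± 10.1 in untreated marrow (log2 change 0.97 ± 0.14, adjusted p = 0.000574). Each of these genes stood higher in all 3 day 18 samples than in any untreated sample. Socs1, a feedback inhibitor, narrowly missed the threshold, with 431, 245 and 246 at day 18 and 145, 144 and 207 in untreated marrow (adjusted p = 0.0508). Ciita, which switches on MHC class II genes, had 790, 665 and 444 at day 18 and 732, 1112 and 1020 in untreated marrow, overlapping between the groups (log2 change -0.61 ± 0.21, adjusted p = 0.0932), and was called lower without day 18 replicate 1 or untreated replicate 1. The type I interferon list, which shares pathways with this one, had 1 of 21 tested members higher, where 5.29% of all genes tested were, and a median log2 change of 0.29. That member was Bst2, with means of 2304 ± 226 at day 18 and 1775 ± 66.8 in untreated marrow (log2 change 0.37 ± 0.09, adjusted p = 0.0144). The Bst2 call ended without day 18 replicate 1 or untreated replicate 2 or 3. Day 18 replicate 1 had the highest mean of type I interferon genes, 0.84 above untreated marrow on the log2 scale, where the other day 18 samples were at 0.23 and -0.07. Whether the interferon lists differ from each other was not tested.

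Families of immunity GTPases, which attack vacuoles of intracellular pathogens and are classical interferon gamma targets, held some of the largest changes. Of 11 tested guanylate-binding protein genes (Gbp) 9 were higher and 0 lower, with a median log2 change of 1.60, and of 11 immunity-related GTPase genes 9 were higher and 0 lower, with a median of 1.96. Gbp2b, given above, is among the Gbp genes called and passed the filter only through treated samples. Gbp2 had 5011, 4140 and 3260 normalised counts at day 18 and 559, 427 and 601 in untreated marrow (log2 change 2.96 ± 0.24, adjusted p = 2.98e-06). Tgtp1 had 911, 691 and 683 at day 18 and 82, 77 and 90 in untreated marrow (log2 change 3.17 ± 0.18, adjusted p = 1.5e-07), and its near-identical neighbour Tgtp2 averaged 2377 ± 389 at day 18 and 469.7 ± 58.5 in untreated marrow. Igtp averaged 2876 ± 217 at day 18 and 738 ± 73.4 in untreated marrow (log2 change 1.96 ± 0.15). Gm4951, a gene of the same family, had 619, 615 and 339 at day 18 and 24, 14 and 23 in untreated marrow (log2 change 4.61 ± 0.31). Apolipoprotein L genes, a cluster on chromosome 15 between 77477047 and 77757003, were higher in 6 of 8 tested members and lower in 0. With a filter on a mean of at least 40 the number higher was 3, and 1 member was lower without untreated replicate 1 or with sample weights. Apol11b averaged 977 ± 265 at day 18 and 71 ± 18.2 in untreated marrow (log2 change 3.76 ± 0.23). Apol10a had 18, 11 and 8 at day 18 and 0, 0 and 1 in untreated marrow and Apol10b 17, 24 and 9 at day 18 and 3, 2 and 0 in untreated marrow. Both reached the filter on low values only through treated samples, and Apol11a, given above, only with the help of treated samples. The place of Apol10a, Apol10b and Apol11a in the count is no support for it. Tgtp1 and Tgtp2, the Gbp genes and the Apol genes include close copies, so reads shared between copies are uncertain.

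Promoter sequences of some of these genes show what the letters of the interferon response look like, and 7 windows from RefSeq (build GRCm38.p6, 250 bases before to 50 bases after the start site, 5′ to 3′ on the strand of the gene) are printed here because their genes were among the called members. Capitals mark 2 motifs searched on both strands: GAAA, any 2 bases and GAAA, a core of the element that interferon regulatory factors bind, and TTC, any 3 bases and GAA, the palindrome of the gamma-activated site. The second motif can overlap the first. Irf1 has 2 windows in the table and the one with a match is shown. All 7 windows printed hold a match, so they are examples and give no share of genes with a motif.
Gbp2 (chr3:142620413-142620712, plus strand): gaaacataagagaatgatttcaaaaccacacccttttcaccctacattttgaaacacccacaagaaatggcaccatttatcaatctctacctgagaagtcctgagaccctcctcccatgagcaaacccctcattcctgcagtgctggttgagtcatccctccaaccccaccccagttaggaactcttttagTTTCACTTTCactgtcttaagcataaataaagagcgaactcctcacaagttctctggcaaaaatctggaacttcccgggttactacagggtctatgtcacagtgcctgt
Tgtp1 (chr11:48992197-48992496, minus strand): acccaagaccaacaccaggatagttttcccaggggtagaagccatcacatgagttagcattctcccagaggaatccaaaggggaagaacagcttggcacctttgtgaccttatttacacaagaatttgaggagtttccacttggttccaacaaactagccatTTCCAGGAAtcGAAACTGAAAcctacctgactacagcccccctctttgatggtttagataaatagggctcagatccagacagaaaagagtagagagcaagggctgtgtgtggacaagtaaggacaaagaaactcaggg
Igtp (chr11:58199306-58199605, plus strand): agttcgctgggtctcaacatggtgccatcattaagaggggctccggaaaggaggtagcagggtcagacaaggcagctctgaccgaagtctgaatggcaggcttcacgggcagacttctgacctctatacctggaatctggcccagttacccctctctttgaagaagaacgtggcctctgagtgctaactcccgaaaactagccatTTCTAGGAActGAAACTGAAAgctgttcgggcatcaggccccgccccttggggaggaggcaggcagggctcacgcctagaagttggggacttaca
Irf1 (chr11:53769764-53770063, plus strand): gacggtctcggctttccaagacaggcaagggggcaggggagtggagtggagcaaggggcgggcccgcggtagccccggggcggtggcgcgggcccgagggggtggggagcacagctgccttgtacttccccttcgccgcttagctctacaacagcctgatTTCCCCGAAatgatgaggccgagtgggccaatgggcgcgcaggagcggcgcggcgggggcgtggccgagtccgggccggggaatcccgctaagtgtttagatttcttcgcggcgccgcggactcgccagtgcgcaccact
B2m (chr2:122147437-122147736, plus strand): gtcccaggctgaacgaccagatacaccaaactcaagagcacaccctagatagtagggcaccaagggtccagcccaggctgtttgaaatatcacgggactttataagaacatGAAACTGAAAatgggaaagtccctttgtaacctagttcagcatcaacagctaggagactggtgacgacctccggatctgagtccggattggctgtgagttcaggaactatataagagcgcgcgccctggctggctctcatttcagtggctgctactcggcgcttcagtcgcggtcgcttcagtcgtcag
Apol11a (chr15:77508019-77508318, plus strand): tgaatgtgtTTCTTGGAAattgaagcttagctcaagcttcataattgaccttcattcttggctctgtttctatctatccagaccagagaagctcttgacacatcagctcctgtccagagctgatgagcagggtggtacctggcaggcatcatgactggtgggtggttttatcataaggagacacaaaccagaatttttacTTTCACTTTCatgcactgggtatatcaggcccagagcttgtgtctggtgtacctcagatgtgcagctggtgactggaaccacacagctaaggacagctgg
Apol11b (chr15:77643237-77643536, minus strand): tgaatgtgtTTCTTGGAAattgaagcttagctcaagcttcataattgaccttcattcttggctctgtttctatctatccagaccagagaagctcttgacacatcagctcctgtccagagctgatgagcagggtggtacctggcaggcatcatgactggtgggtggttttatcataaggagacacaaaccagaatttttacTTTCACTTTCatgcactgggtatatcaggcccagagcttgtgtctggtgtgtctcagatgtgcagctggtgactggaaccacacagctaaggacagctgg

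In Tgtp1 and Igtp both motifs stood 2 bases apart, with the TTC motif first, starting 88 and 45 bases before the start site. Gbp2 held 1 match to the GAAA motif, which began 59 bases before the start site, B2m 1 that began 139 bases before it, and Irf1 1 match to the TTC motif that began 90 bases before it. The windows of Apol11a and Apol11b differed at 2 of 300 positions and carried the GAAA motif 50 bases and the TTC motif 241 bases before the start site. Among interferon gamma list members that were tested, 17 had a window in the table; the GAAA motif was in 11 of them (64.7%) and the TTC motif in 9 (52.9%). Over all 27025 genes with a window the shares were 3.99% and 9.55%, and over the 9904 tested genes with a window 4.15% and 8.55%. In the type I interferon list, where 1 member was called, 9 of 18 windows held the GAAA motif and 4 the TTC motif, and in the T cell core list 0 and 1 of 9 did. In the MHC class I list 5 of 11 windows held the GAAA motif and 1 the TTC motif (9.09%), near the share of all tested genes. The counts were 3 and 4 of 15 in the cytotoxic effector list, 1 and 0 of 10 in the mature B cell list and 0 and 1 of 15 in the natural killer list. A match is a description of letters, not a bound site or a cause.

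The genes of the MHC class I presentation list were higher at day 18 in 14 of 14 tested members, with log2 changes from 0.64 to 2.08 and a median of 1.12. The summed level of the list ranged from 129793 to 135922 at day 18 and from 56477 to 59655 in untreated marrow. H2-Q6, a nonclassical class I gene (ENSMUSG00000073409.12, chromosome 17 from 35424850 to 35430055 on the plus strand), had 12947, 12815 and 13987 normalised counts at day 18 and 2844, 3391 and 3210 in untreated marrow (log2 change 2.08 ± 0.09, adjusted p = 7.49e-09). Nlrc5, the transactivator of class I genes, had 6885, 5995 and 5030 at day 18 and 1691, 1328 and 1767 in untreated marrow (log2 change 1.90 ± 0.11, adjusted p = 2.9e-07). B2m, the light chain of every class I molecule, had 59094, 65838 and 58186 at day 18 and 27487, 25483 and 27549 in untreated marrow (log2 change 1.18 ± 0.10). Tap1, a subunit of the peptide transporter, averaged 9001 ± 501 at day 18 and 3579 ± 275 in untreated marrow. Psmb10, a subunit of the immunoproteasome, averaged 2503 ± 175 at day 18 and 1189 ± 39 in untreated marrow, and H2-T22 3933 ± 114 at day 18 and 1543 ± 91.1 in untreated marrow. Each of these genes stood higher in all 3 day 18 samples than in any untreated sample. Among all 10 tested genes whose symbols start with H2, which lie on chromosome 17 between 35379617 and 37274484 and include genes outside the list, 8 were higher and 1 lower. The lower one was H2-Q10, which encodes a secreted class I molecule and had 1001, 704 and 942 at day 18 and 2260, 1867 and 2038 in untreated marrow (log2 change -1.23 ± 0.19, adjusted p = 0.000922). H2-T24 had 3870, 2677 and 2597 at day 18 and 3460, 2223 and 3119 in untreated marrow, overlapping between the groups, and was not called (adjusted p = 0.901). Both genes were named after their values were seen. H2-Q and H2-T genes are close relatives, and reads shared between them are uncertain. Of the 12 genes of the MHC class II list only 2, Ctss and Ciita, had values and were tested. Neither was called with limma, and 1 had an unadjusted p under 0.05. No class II chain was among the tested members, so the list gives no result for the chains.

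**Figure D3:**
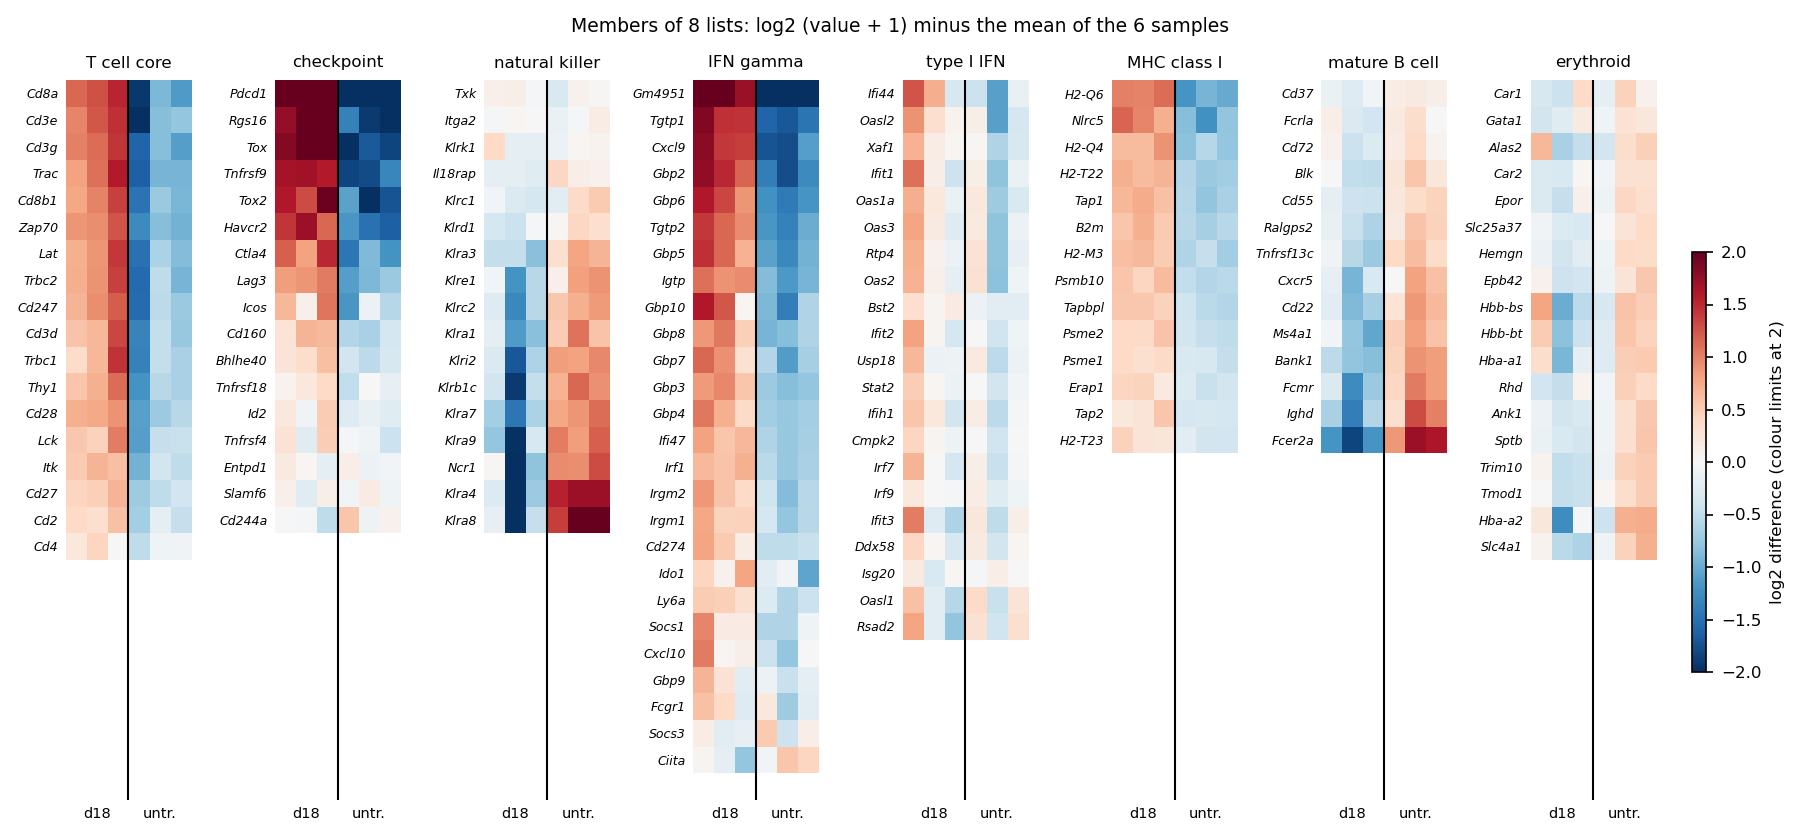
Each row is a tested member of 1 of 8 lists, with a few members not reported here, and each column a sample, with 3 day 18 samples left of the line and 3 untreated samples right of it. Colour gives log2 of the value plus 1 minus the mean of the 6 samples, and colours saturate at 2. T cell, checkpoint, interferon gamma and MHC class I members are mostly red at day 18 and natural killer and mature B cell members mostly blue, while type I interferon members vary among the day 18 samples.

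Several cytokine and activation genes were higher. Of 15 tested inflammatory cytokines and chemokines 6 were higher and 0 lower, with a median log2 change of 0.165. With only the 2 groups in the fit or with sample weights, 2 were lower. The summed level of the list was lower at day 18, from 11619 to 12542 against 15118 to 15399 in untreated marrow. Ccl6 made up 58% of that sum, and the other 14 members summed to 5425 to 6007 at day 18 and 5222 to 6374 in untreated marrow. Ccl8, given above, is among the 6 and passed the filter only through treated samples. Il6, a growth factor of plasma cells and myeloma cells, had 54, 46 and 52 normalised counts at day 18 and 17, 21 and 21 in untreated marrow (log2 change 1.33 ± 0.21, adjusted p = 0.00134). The neutrophil chemokine gene Cxcl2 had 442, 276 and 365 at day 18 and 74, 78 and 174 in untreated marrow (log2 change 1.81 ± 0.33). Il18bp, the decoy receptor of IL-18 that interferon gamma induces, averaged 629 ± 17.9 at day 18 and 431 ± 31.9 in untreated marrow. Immediate early genes were higher in 8 of 17 tested members and lower in 1. The number higher was 5 without untreated replicate 1 or day 18 replicate 3, and 4 without untreated replicate 2 or day 18 replicate 1. Nr4a2, a nuclear receptor induced by receptor signalling, had 312, 367 and 368 at day 18 and 43, 44 and 55 in untreated marrow (log2 change 2.86 ± 0.22, adjusted p = 1.62e-06). Egr2 averaged 62.3 ± 8.08 at day 18 and 26 ± 7.21 in untreated marrow, and Nr4a3 72.7 ± 18.9 at day 18 and 35.3 ± 9.61 in untreated marrow. Jun had 4002, 2035 and 2811 at day 18 and 895, 1142 and 1842 in untreated marrow (log2 change 1.20 ± 0.25, adjusted p = 0.00756), and Fos 5573, 3858 and 5476 at day 18 and 1887, 2096 and 3702 in untreated marrow (adjusted p = 0.0219). Fos and Jun differ more between samples of a group than Nr4a2 does, and the Fos call ended without untreated replicate 1 or 2 or day 18 replicate 1 or 3. The member that fell, Btg2, an inhibitor of proliferation, averaged 3704 ± 368 at day 18 and 4813 ± 485 in untreated marrow (adjusted p = 0.0144), and lost its call without untreated replicate 3 or day 18 replicate 2. At day 4 Fos and Jun stood higher than at day 18, with means of 20083 ± 3206 for Fos and 15803 ± 1301 for Jun. Immediate early genes also respond to how tissue is handled, and the part of handling was not tested.

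Folding genes of the cytosol and of the endoplasmic reticulum were higher. Of 11 cytosolic heat shock genes tested 7 were higher and 0 lower, with a median log2 change of 0.38. Hspa8, the constitutive chaperone, had 50049, 48304 and 49637 normalised counts at day 18 and 26803, 26863 and 30225 in untreated marrow (log2 change 0.82 ± 0.09, adjusted p = 6.59e-05). Hsph1, its nucleotide exchange factor, averaged 2156 ± 261 at day 18 and 1093 ± 92.5 in untreated marrow (log2 change 0.98 ± 0.10). Dnaja1, a cochaperone, averaged 4132 ± 98.8 at day 18 and 3261 ± 175 in untreated marrow. The inducible Hspa1a, which has a near-identical neighbour, had 16, 17 and 47 at day 18 and 2, 2 and 9 in untreated marrow. Hspa1a passed the filter only through treated samples, so its place in the count is no support for it. After quantile normalisation, or without day 18 replicate 2 or untreated replicate 2, 4 of the list were higher. In the secretory and unfolded protein response list 8 of 15 tested members were higher and 0 lower. Hspa5, the main chaperone of the endoplasmic reticulum, had 20389, 18332 and 17736 at day 18 and 11237, 10723 and 12570 in untreated marrow (log2 change 0.71 ± 0.09, adjusted p = 0.000184). Creld2 averaged 908 ± 71.7 at day 18 and 544 ± 19.1 in untreated marrow. Manf, a secreted stress protein, averaged 1131 ± 80.4 at day 18 and 746 ± 9.24 in untreated marrow. Glycolytic and hypoxia genes were higher in 4 of 15 tested members, Ldha, Pgk1, Car9 and Pfkl, by log2 changes of 0.34, 0.30, 0.49 and 0.24. All 4 of those calls ended without untreated replicate 2 or 3 or day 18 replicate 2. Cholesterol synthesis genes were called in 0 of 15 with limma, and 3 had an unadjusted p under 0.05.

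Mature B cell transcripts were lower at day 18. Of 15 tested mature B cell genes 13 were lower and 0 higher, with a median log2 change of -0.92. Fcer2a, the low-affinity IgE receptor CD23 of follicular B cells (ENSMUSG00000005540.10, chromosome 8 from 3681737 to 3694175 on the minus strand), had 143, 90 and 143 normalised counts at day 18 and 589, 1057 and 991 in untreated marrow, a log2 change of -2.79 ± 0.24 (SE, adjusted p = 4.02e-06). Bank1, a scaffold of B cell receptor signalling, had 372, 310 and 297 at day 18 and 733, 1002 and 956 in untreated marrow (log2 change -1.45 ± 0.13, adjusted p = 8.16e-06). Ms4a1, the gene of CD20, had 1583, 954 and 796 at day 18 and 2284, 2892 and 2447 in untreated marrow (log2 change -1.25 ± 0.23, adjusted p = 0.00419). Cd55, a complement regulator, averaged 1009.7 ± 89.8 at day 18 and 1632 ± 125 in untreated marrow. Of 14 B cell precursor genes 12 were not called, with a median log2 change of -0.195 over the 14, and 2 were lower, the receptor chain genes Cd79a and Cd79b, which mature B cells express too, and Cd79a averaged 2487 ± 541 at day 18 and 4088 ± 671 in untreated marrow, Cd79b 2344 ± 427 at day 18 and 3846 ± 712 in untreated marrow. Both calls were lost without day 18 replicate 2 or untreated replicate 2 or 3, and Cd79b also lost its call when untreated or day 11 replicate 1 or day 18 replicate 3 was left out.

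Immunoglobulin and plasma cell genes, which both normal plasma cells and myeloma cells express, gave a mixed picture. Of 11 constant region genes 5 were lower and 0 higher, and of 168 variable segments tested 17 were lower and 0 higher. By symbol, 9 of 91 Ighv segments were lower, against 2 without day 18 replicate 2, 5 without day 18 replicate 3, 3 without untreated replicate 2 and 19 without day 18 replicate 1, and 9 of 79 Igkv segments were lower, against 5 without day 18 replicate 2 and 15 without day 18 replicate 1. Ighd, the heavy chain of naive B cells, averaged 821 ± 227 at day 18 and 2800.3 ± 904 in untreated marrow (log2 change -1.75 ± 0.24, adjusted p = 0.000337). The kappa constant gene Igkc had 4347, 2366 and 4346 at day 18 and 8226, 7367 and 6204 in untreated marrow (log2 change -1.02 ± 0.23, adjusted p = 0.0123). Iglc2 averaged 127 ± 38 at day 18 and 311 ± 63.8 in untreated marrow, and Ighg2c 104 ± 44.4 at day 18 and 268 ± 113 in untreated marrow. Without day 18 replicate 2, 2 of the 11 constant genes were lower, and 3 were without untreated replicate 2 or 3. Iglc2 lost its call when replicate 2 of either group was left out, and Ighg2c when untreated replicate 1 or 3 or day 18 replicate 2 or 3 was. The heavy chain gene Ighg2b (ENSMUSG00000076613.4, chromosome 12 from 113302965 to 113307933 on the minus strand) had 3053, 1493 and 1989 normalised counts at day 18 and 15029, 5042 and 7027 in untreated marrow. The groups did not overlap and the log2 change was -1.96 ± 0.74, but the adjusted p was 0.122. The segments Ighv1-15, with 1129, 435 and 662 at day 18 and 6376, 2190 and 2924 in untreated marrow, and Igkv4-91, with 1195, 524 and 802 at day 18 and 6687, 2450 and 2933 in untreated marrow, ranked their samples in the same order as Ighg2b and were not called either (adjusted p = 0.109 and 0.162). All 3 passed when only day 18 and untreated samples entered the fit, at adjusted p = 0.0175, 0.012 and 0.0109, and without day 4 replicate 2, whose spread enters the shared error. Ighg2b and these segments were chosen after their values were seen.

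The plasma cell and myeloma list had 1 of 17 tested members higher and 2 lower. Among all genes tested 5.29% were higher and 3.91% lower, so these counts are not read as a result about the list. Sdc1, the plasma cell surface marker CD138, had 299, 282 and 231 normalised counts at day 18 and 675, 398 and 432 in untreated marrow (log2 change -0.86 ± 0.17, adjusted p = 0.00648), and untreated replicate 1 was its highest sample, as it was for Ighg2b. Tnfrsf13b, the receptor TACI of B and plasma cells, averaged 1292 ± 108 at day 18 and 1730.3 ± 117 in untreated marrow (log2 change -0.42 ± 0.09, adjusted p = 0.00943). Jchain, which joins secreted antibody, had 2071, 788 and 1543 at day 18 and 2396, 2907 and 2094 in untreated marrow and did not pass (adjusted p = 0.145). Prdm1, the gene of Blimp-1, was the member that rose, with 317, 311 and 250 at day 18 and 95, 70 and 94 in untreated marrow (log2 change 1.76 ± 0.22, adjusted p = 0.000207). Blimp-1 drives plasma cell differentiation and is also expressed by effector CD8 T cells, and it stands in the cytotoxic effector list too.

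**Figure D4:**
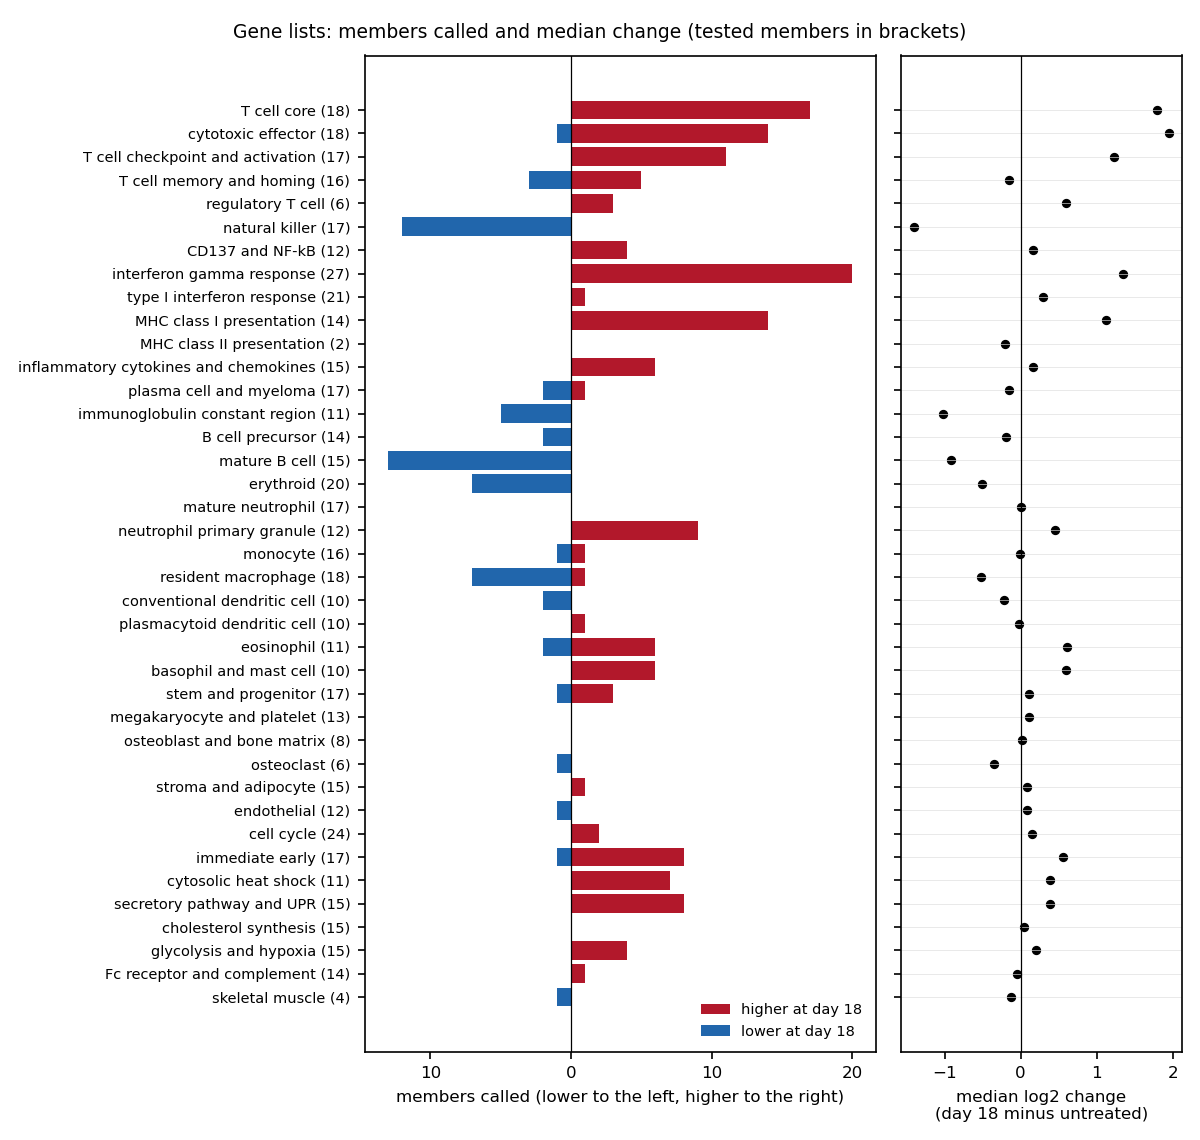
For each of 39 gene lists, bars give the number of members called lower (blue, left) and higher (red, right) at day 18, and points give the median log2 change of the tested members. T cell, interferon gamma and MHC class I lists extend to the right, and natural killer, mature B cell and erythroid lists to the left.

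Red cell precursors had 7 of 20 tested members lower and 0 higher, with a median log2 change of -0.50. Sptb, a spectrin gene of the red cell skeleton (ENSMUSG00000021061.15, chromosome 12 from 76580488 to 76710547 on the minus strand), had 2241, 1972 and 1886 normalised counts at day 18 and 2324, 3072 and 3599 in untreated marrow (log2 change -0.54 ± 0.13, adjusted p = 0.0225). The mitochondrial iron importer gene Slc25a37 had 4465, 3894 and 3793 at day 18 and 4670, 5616 and 6211 in untreated marrow (log2 change -0.43 ± 0.10, adjusted p = 0.0184). Untreated replicate 1 was the lowest of its group for both genes, and both calls ended without untreated replicate 2 or 3 or day 18 replicate 2, and that of Sptb also without day 18 replicate 3. Without untreated replicate 1, 12 members were lower, 1 was without untreated replicate 2 or 3 or day 18 replicate 2, and 11 were without day 18 replicate 1, so the count rests on single samples. Tal1, a transcription factor of stem cells and erythroid cells, averaged 1440 ± 61 at day 18 and 1884 ± 226 in untreated marrow (log2 change -0.38 ± 0.10, adjusted p = 0.0265), and lost its call without untreated replicate 2 or 3 or day 18 replicate 1 or 2.

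Resident macrophage genes were lower in 7 of 18 tested members and higher in 1, Il18bp, described above, and 4 were lower without untreated replicate 3. Cd163, the scavenger receptor for haemoglobin, had 204, 306 and 269 normalised counts at day 18 and 585, 599 and 815 in untreated marrow (log2 change -1.36 ± 0.18, adjusted p = 0.000378). Slc40a1, the iron exporter ferroportin, averaged 3572 ± 271 at day 18 and 4941 ± 392 in untreated marrow (log2 change -0.47 ± 0.09). Apoe, an apolipoprotein gene, averaged 2011 ± 189 at day 18 and 4520.3 ± 801 in untreated marrow (log2 change -1.16 ± 0.19). The largest fall of all genes named by size was Cd209f, a C-type lectin gene (ENSMUSG00000051906.15, chromosome 8 from 4102787 to 4105835 on the minus strand), with 5, 0 and 5 at day 18 and 59, 79 and 56 in untreated marrow (log2 change -4.30 ± 0.64, adjusted p = 0.000809). With a pseudocount of 0.1 or 5 its log2 change was -5.54 or -3.12, and it was -3.44 without day 18 replicate 2. Col14a1, a fibril-associated collagen gene, had 12, 4 and 16 at day 18 and 115, 97 and 166 in untreated marrow (log2 change -3.58 ± 0.52, adjusted p = 0.000626). Klrb1a, Pxdc1, Rapgef4 and Chp2 were also among the 10 largest falls. Klrb1a, a lectin-like receptor gene, had 10, 1 and 8 at day 18 and 32, 40 and 37 in untreated marrow, and Pxdc1 had 30, 8 and 23 at day 18 and 63, 137 and 117 in untreated marrow. Rapgef4, a cAMP-regulated exchange factor, had 17, 12 and 13 at day 18 and 59, 95 and 84 in untreated marrow, and Chp2 had 7, 19 and 26 at day 18 and 67, 86 and 92 in untreated marrow. Dcaf8l had 3, 4 and 1 at day 18 and 70, 27 and 41 in untreated marrow, and its call ended when any replicate of either group was left out. Klra8, Klra4 and Fcer2a, given above, complete these 10. Cd209f, Dcaf8l, Klrb1a, Klra8, Klra4, Col14a1, Pxdc1 and Chp2 had a day 18 sample under 10. Their day 18 samples alone would not have passed the filter, so their place among the falls is no support for a fall. As with the rises, a gene could enter these 10 only without overlap of its day 18 and untreated samples. The separation in all 10 is therefore no support for them. Osteoclast genes were called in 1 of 6 tested members, Acp5, the bone-resorbing phosphatase gene, with means of 506 ± 54.5 at day 18 and 806 ± 161 in untreated marrow.

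Genes of early granulocytes and of basophils were called in 1 direction. Of 12 primary granule genes, which neutrophil precursors express, 9 were higher and 0 lower, with a median log2 change of 0.45. The number higher was 6 after quantile normalisation or with no intensity trend. It was also 6 without untreated replicate 2 or 3 or day 18 replicate 2 or 3, and 11 with sample weights. Mpo, the gene of myeloperoxidase, had 31109, 36630 and 37849 normalised counts at day 18 and 24580, 24759 and 25699 in untreated marrow (log2 change 0.49 ± 0.10, adjusted p = 0.00846), and the elastase gene Elane averaged 19526 ± 1155 at day 18 and 14439 ± 573 in untreated marrow (log2 change 0.43 ± 0.11). Both lost their calls after quantile normalisation, and Elane also without day 18 replicate 2 or 3 or untreated replicate 1 or 3. Nkg7 and Cst7 stand in the cytotoxic effector list as well, and Nkg7 averaged 4438 ± 652 at day 18 and 1525 ± 80.3 in untreated marrow, Cst7 1089.7 ± 48.5 at day 18 and 663 ± 50.6 in untreated marrow. Calr, the chaperone calreticulin, averaged 24321 ± 2568 at day 18 and 15311 ± 559 in untreated marrow and also stands in the secretory list. Basophil and mast cell genes were higher in 6 of 10 tested members and lower in 0. Il6, given above with the inflammatory cytokines, is among these 6 and had the largest log2 change of the list, 1.325. Mcpt8, a basophil protease gene, had 4579, 4898 and 4529 at day 18 and 2477, 2927 and 1916 in untreated marrow (log2 change 0.96 ± 0.16, adjusted p = 0.0023). Cpa3, the mast cell carboxypeptidase, averaged 1723 ± 214 at day 18 and 942 ± 74.8 in untreated marrow. Hdc, the histamine-forming enzyme, averaged 8271 ± 1087 at day 18 and 5087 ± 773 in untreated marrow, and the transcription factor gene Gata2 1216 ± 47 at day 18 and 861 ± 25.9 in untreated marrow.

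Eosinophil genes were called in both directions. Of 11 tested members 6 were higher and 2 lower. The higher ones included granule proteins: Epx, the eosinophil peroxidase, had 1268, 1888 and 1728 normalised counts at day 18 and 499, 552 and 896 in untreated marrow (log2 change 1.35 ± 0.21, adjusted p = 0.0013). Prg2, the major basic protein, had 4045, 5422 and 6818 at day 18 and 1929, 2828 and 3398 in untreated marrow (adjusted p = 0.0105). The ribonuclease genes Ear6 and Ear1, which are close copies, averaged 288 ± 62.7 and 230.3 ± 35.3 at day 18 and 86 ± 24 and 79.3 ± 30.9 in untreated marrow. The 2 lower ones were surface receptors. Ccr3, the eotaxin receptor, had 96, 86 and 101 at day 18 and 198, 196 and 267 in untreated marrow (log2 change -1.20 ± 0.20, adjusted p = 0.00211). Il5ra, the IL-5 receptor chain, had 58, 50 and 40 at day 18 and 78, 117 and 114 in untreated marrow (log2 change -1.04 ± 0.21, adjusted p = 0.00674). Neither pair of groups overlapped. Stem and progenitor genes had 3 of 17 tested members higher, Gata2, Ly6a and Slamf1, and 1 lower, Tal1, and 1 was higher without day 18 replicate 1 or 2. Ly6a, the gene of Sca-1 and also an interferon target, averaged 1454 ± 101 at day 18 and 796 ± 90.0 in untreated marrow (adjusted p = 0.0223), and Slamf1 90.3 ± 13.7 at day 18 and 55 ± 12.2 in untreated marrow (adjusted p = 0.0318). Ly6a lost its call without day 18 replicate 1 or 2 or untreated replicate 2 or 3, and Slamf1 without day 18 replicate 1 or 2 or untreated replicate 1. Megakaryocyte genes were called in 0 of 13 with limma and 3 had an unadjusted p under 0.05. Cell cycle genes were called in 2 of 24, where 9.2% of all genes tested were called, so the count is not read as a result about the list. The replication helicase subunit gene Mcm6 averaged 9002 ± 585 at day 18 and 7557 ± 161 in untreated marrow. The topoisomerase gene Top2a averaged 20686 ± 2742 at day 18 and 15935 ± 955 in untreated marrow. Both calls ended when any untreated replicate, day 4 replicate 3, day 11 replicate 1 or day 18 replicate 2 was left out.

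The last comparison asks whether day 18 differs from day 11, the treated time before it. With limma 1 of 14883 genes passed, 0.00672% of those tested. That gene was Lag3, with 1187, 1225 and 1357 normalised counts at day 18 and 700, 625 and 739 at day 11, and the log2 change was 0.87 ± 0.11 (SE; adjusted p = 0.0168). The groups did not overlap. Leaving out any day 11 sample or day 18 replicate 2 ended the call, with an adjusted p between 0.0557 and 0.144 and a log2 change between 0.80 and 0.92. Without the adjustment 1040 genes, 6.99%, had a p under 0.05, of which 479 (3.22%) were higher and 561 (3.77%) lower at day 18. That number was 1764 without day 18 replicate 3 and 2061 with sample weights. The number called ranged from 0 to 28 when single samples were left out and was 151 with sample weights.

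The medians of the lists at the 3 treated times are given side by side, because every difference from untreated marrow shares the same 3 untreated samples. T cell core members had a median log2 change from untreated marrow of 0.75 at day 4, 1.695 at day 11 and 1.80 at day 18, and mature B cell members of -0.53 at day 4, -1.13 at day 11 and -0.92 at day 18. MHC class I members had 0.25 at day 4, 0.73 at day 11 and 1.12 at day 18, and 14 of 14 stood higher at day 18 than at day 11, 13 of them with an unadjusted p under 0.05. Psmb10 averaged 2503 ± 175 at day 18 and 1920.3 ± 24.1 at day 11 (adjusted p = 0.0848), and Irf1 of the interferon gamma list 5709.7 ± 281 at day 18 and 4106 ± 141 at day 11 (adjusted p = 0.0834). Natural killer members had medians of 0.32 at day 4, -1.01 at day 11 and -1.405 at day 18. Erythroid members had 0.31 at day 4, 0.07 at day 11 and -0.50 at day 18, and 20 of 20 stood lower at day 18 than at day 11, 18 of them with an unadjusted p under 0.05. Sptb had 2241, 1972 and 1886 at day 18 and 3045, 3228 and 3039 at day 11 (log2 change -0.61 ± 0.13, adjusted p = 0.121). No gene of these lists passed the adjusted test between day 18 and day 11, and members of a list are not independent of each other.

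**Figure D5:**
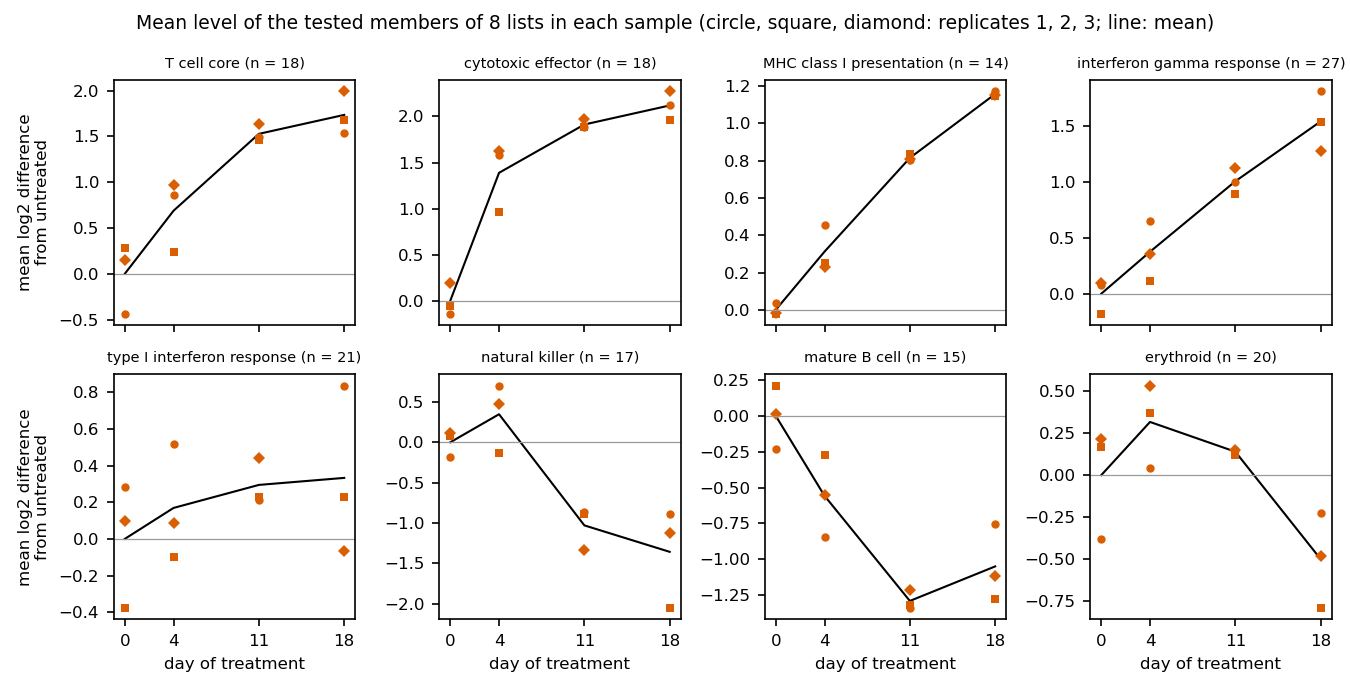
Mean over the tested members of 8 lists of the log2 difference from untreated marrow, by day of treatment, with 1 symbol per sample and a line through the means of 3 samples. In the T cell core panel the day 18 samples lie between 1.54 and 2.00, in the natural killer panel between -2.05 and -0.89, and in the erythroid panel between -0.79 and -0.23 while day 11 samples lie between 0.12 and 0.15.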

How the data were processed

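Total marrow RNA (100 to 300 ng) was sequenced as stranded mRNA libraries in 150 bp read pairs, per the labels' protocols. The submitters' processing notes list GRCm38 as the build, with the tools STAR 2.3.0, featureCounts 1.4.6 of Subread and limma; their roles and the strand setting are not given in the sources used here, so overlapping antisense genes cannot be told apart. Each deposited value is a score, a count normalised by the authors by a method not stated and rounded to whole numbers, per the file headers, so count models were not used. Depth was estimated from the value steps.

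Values were tested as log2(value + 1) with limma 3.58.1 (R 4.3.3, intensity trend, a mean per group over all 12 samples, 8 residual degrees of freedom), two-sided, with Benjamini-Hochberg adjustment over the 14883 genes with 10 or more in at least 3 samples. The procedure was tested on simulated data. That simulation gave every gene the same dispersion and had no sample effects, so it does not bear on calls that rest on single samples. An exact permutation test of 3 against 3 cannot go below p = 0.1. Named genes were Tnfrsf9, the 10 largest called rises and falls without overlap and with a mean of at least 20, leaving out predicted genes, pseudogenes and receptor segments, the members with the lowest adjusted p (4 at most) in lists with 3 or more called, and further members where a list is described. Some list members are not reported here by name, though the counts of their lists include them. The comparison, its 39 gene lists and the tests were chosen with earlier results of these data known. Alternatives were other pseudocounts, filters, scalings, weights, a depth covariate and leaving out each sample.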

Additional observations from a re-analysis of the deposited data

Results flagged for a closer look

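Lag3 was the single gene whose level differed between day 18 and day 11 of treatment after adjustment over all genes tested. The normalised counts were 1187, 1225 and 1357 at day 18 and 700, 625 and 739 at day 11, a difference of 0.869 on the log2 scale (limma, adjusted p = 0.0168), and all 3 day 18 samples lay above all 3 day 11 samples. It is listed because its change from untreated marrow differed between the 2 times.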

How the results depend on the processing

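Between day 18 and untreated marrow, the 1369 genes called became 2056 with sample weights (942 lower) and 499 with a log2 change of at least 1 (332 higher, 167 lower). Leaving out single samples gave 804 to 1413 genes, 508 to 798 higher and 275 to 619 lower. Quantile normalisation gave 728 higher and 654 lower. Between day 18 and day 11, the 1 gene called became 3 with no filter, 14 with only the 2 groups in the fit, 151 with sample weights, and 0 with no intensity trend or with a log2 change of at least 1 (limma, 1024 and 1040 genes at an unadjusted p under 0.05), and 0 to 28 when single samples were left out. With no intensity trend, Lag3 had an adjusted p of 0.0971 in that comparison. Of the 157 genes followed through 22 alternatives (142 genes under the filter on the mean), 147 were called as reported. None changed direction but H2-T24, not called, which ranged from -0.133 to 0.186 when single samples were left out (-0.133 without untreated replicate 2, -0.129 without day 18 replicate 1). Calls were lost by 24 genes without untreated replicate 3, 24 without day 18 replicate 2, 23 with no intensity trend, 22 without untreated replicate 2, 17 with the depth covariate and 17 with only the 2 groups in the fit. The median log2 change of all genes stayed between -0.0153 and 0.013. MHC class I members were called 14 of 14 times under each alternative on the adjusted p alone, and interferon gamma members 19 to 22 of 27. The alternatives for gene families and for Lag3 between day 18 and day 11 were chosen after seeing the data. The labels give no replicate numbers, and the replicates are numbered here in the order of the samples. No paired analysis was possible because the labels link no sample of a day to a sample of another day. Low counts limit the sizes given for Ccl8, Coch, Klra8 and Cd209f, and the unknown scaling limits comparison of levels across samples. The cause of these differences between alternatives was not tested.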

Other observations

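Gene groups not described above gave these values at day 18 against untreated marrow, read beside 5.29% of all genes tested called higher and 3.91% called lower. Proteasome genes named Psm were higher in 7 of 39 tested and lower in 0, with a median log2 change of 0.158. Psmb10, described above in the MHC class I list, is among these 7, so this count is not separate from that list. Ribosomal protein genes were called in 1 of 194, a pseudogene of Rpl35a, with a median of 0.074. Gimap genes, which encode GTPases of lymphocyte survival, were higher in 2 of 9, with a median of 0.517. Gimap7 had 569, 598 and 807 normalised counts at day 18 and 116, 188 and 181 in untreated marrow (limma, adjusted p = 2.25e-05). Gimap4 had 3015, 2733 and 3539 at day 18 and 1057, 1557 and 1490 in untreated marrow (adjusted p = 0.000817). Plasmacytoid dendritic cell genes were higher in 1 of 10, Bst2, and conventional dendritic cell genes lower in 2 of 10, Cd209a and Ccr7. Cd209a, a lectin gene, had 192, 126 and 190 at day 18 and 270, 409 and 333 in untreated marrow. Monocyte genes were higher in 1 of 16, Spn, and lower in 1, Cx3cr1. Spn, the gene of CD43, had 10782, 12430 and 12043 at day 18 and 9177, 8732 and 9038 in untreated marrow. Their summed level ranged from 217402 to 237677 at day 18 and from 191745 to 227248 in untreated marrow. Osteoblast and bone matrix genes were called in 0 of 8 with limma, and 1 had an unadjusted p under 0.05. Genes in this paragraph other than Psmb10 lie outside the rule for named genes and were chosen after their values were seen.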
